A study of Homo sapiens with 2 samples.

Results

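ZNF genes of the short arm of chromosome 19 had more transcript in H1299 cells after PHF12 knockdown than in their control, and the excess sat mainly in the cluster next to the centromere. The genes were chosen as the protein-coding genes named ZNF plus a number, with an optional letter, that start before position 26000000 of chromosome 19 (hg38). The rule gave 83 genes of the 38637 in the table, and the 74 of them whose mean level reached 1 CPM (counts per 1000000 library counts) are called measured here. The arm itself was selected on the log2 fold changes of ZNF genes, which were known to lean higher after the knockdown, so the values below describe that lean and do not test it. H1299 is a line of human lung cancer of the non-small cell type, and both cultures carry the wild-type genotype label. One library is labelled as PHF12 knockdown, with a title that starts with si, and the other as a control whose treatment is given as none, with a title that ends in nc. The sources used here do not say if the control was given an oligonucleotide. There was 1 poly(A)-selected library per group, so no difference below has a replicate check, no p-value was made, and intervals cover counting error only.

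Most of these genes encode C2H2 zinc finger proteins of the KRAB class. In such a protein an array of zinc fingers reads DNA, often inside a retrotransposon, and the KRAB domain recruits TRIM28 (KAP1), which brings the histone methyltransferase SETDB1 and other silencing factors. The genes arose by tandem duplication and lie in clusters on chromosome 19, those nearest the centromere being largely specific to primates. PHF12 is a PHD finger subunit of a Sin3 and histone deacetylase corepressor complex.

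The knockdown library held 26084594 gene counts and the control library 24740581. PHF12 had 756 counts (8.71 TPM, a level scaled for gene length) in the knockdown library, against 947 counts (11.4 TPM) in the control library, a ratio of 0.753 with a 95% counting interval of 0.683 to 0.829. Its log2 fold change was -0.40, and 8.90% of measured genes differed by more in either direction. KRT8, KRT18 and VIM were abundant, at 888, 1772 and 4876 TPM in the knockdown library and 1147, 2189 and 5349 TPM in the control library, while the epithelial markers EPCAM (25 and 19 counts) and KRT19 (13 and 5 counts) were nearly absent. The leukocyte markers PTPRC and CD3E had 0 counts in both libraries. PECAM1, VWF, COL1A1, DCN and ALB had at most 63 counts in the knockdown library and at most 50 in the control library, whereas CD68, a lysosomal protein gene used as a macrophage marker, had 5053 and 3891.

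The 83 ZNF genes were of low abundance. Together they took 21969 counts in the knockdown library, or 839.8 CPM after scaling, and 17445 in the control library, or 707.2 CPM. The ratio of these scaled sums was 1.19, with a counting interval of 1.16 to 1.21. The median measured gene had 5.17 TPM in the knockdown library and 3.99 TPM in the control library. In bulk RNA, fewer cells of a state and less RNA per cell cannot be told apart. The 9 genes under the minimum comprise ZNF676, ZNF99, ZNF723 and ZNF728, with 0 counts in both libraries, ZNF560 with 0 and 3, ZNF98 with 1 and 2, ZNF491 with 34 in the knockdown library and 15 in the control library, ZNF763 with 28 and 20, and ZNF878 with 27 and 21. A count of 0 allows up to 3 counts at this depth. Just above the minimum stood ZNF729 with 39 counts in the knockdown library and 25 in the control library, ZNF442 with 55 and 49, and ZNF709 with 58 and 65. The last gene inside the positional limit was ZNF254, and the next ZNF gene along the chromosome, ZNF536, starts at 30224236 and had 0 counts in both libraries.

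The median log2 fold change of the 74 measured genes was 0.24, with quartiles of -0.02 and 0.53 and a range from -0.52 to 1.01. The median of all 14559 measured genes was -0.01. Of the 74 genes, 54 (73%) had a log2 fold change above 0, as did 48.4% of all measured genes. Higher by 1.5-fold or more after the knockdown were 14 of the 74, beside 1.33% of all measured genes, and lower by as much were 0 of 74, beside 1.41%. The counting interval of the ratio lay above 1 for 36 of the 74 genes (20.3% of all measured genes) and below 1 for 4 (20.9% of all). The ratios and intervals here are taken without a pseudocount, while each log2 fold change adds 0.5 CPM to both libraries, which pulls low genes towards 0.

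Along the arm the genes fall into 4 clusters when a gap of more than 500 kb between neighbours separates one cluster from the next. The first cluster, ZNF554 to ZNF77 at 2819868 to 2944971, holds 5 genes, and the second, ZNF414 to ZNF846 at 8509678 to 9786160, holds 13. The third, ZNF653 to ZNF791 at 11483429 to 12633834, holds 25. The fourth, ZNF101 to ZNF254 at 19668070 to 24129968, holds 37 and is the cluster on the centromere side. ZNF557, ZNF358 and ZNF333 stand outside the clusters. The median log2 fold change was 0.06 in the first cluster, -0.02 in the second, 0.13 in the third and 0.50 in the fourth, so the fourth cluster stood apart from the others. It held 13 of the 14 genes at least 1.5-fold higher, and 24 of the 36 genes whose interval lay above 1. The 42 measured genes outside it had a median of 0.06, with 1 gene at least 1.5-fold higher, 12 intervals above 1 and 4 below.

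**Figure D1:**
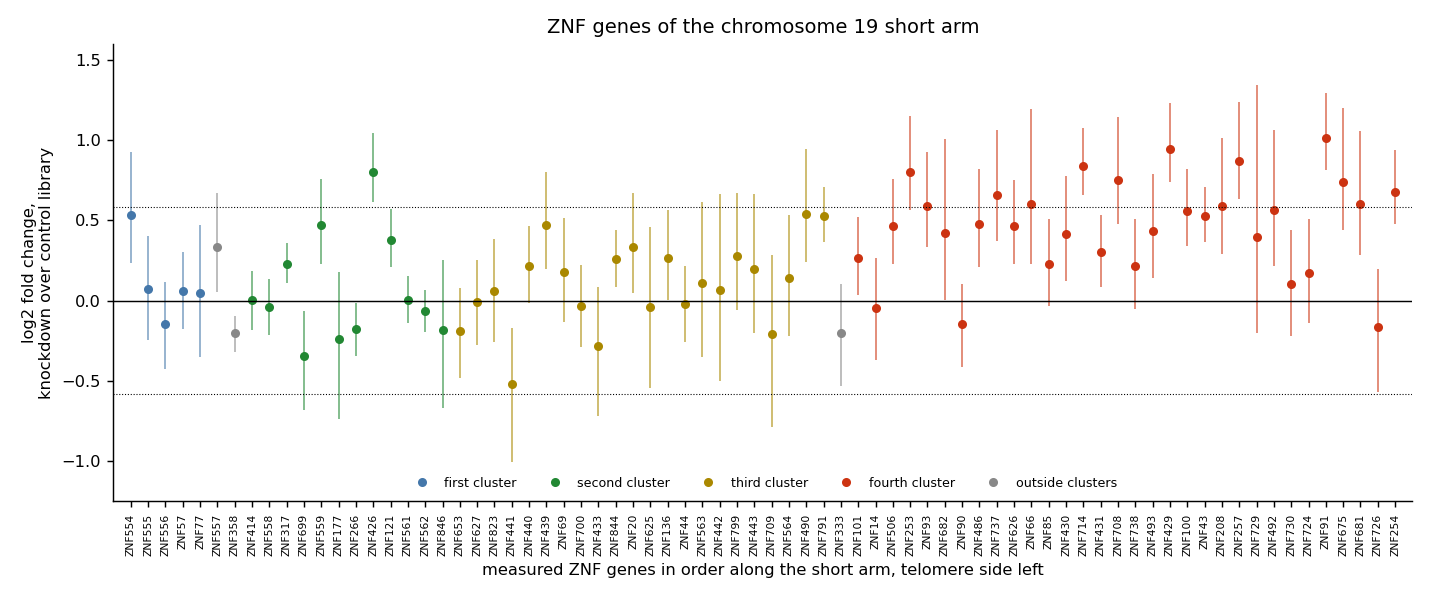
Log2 fold change (knockdown over control library) of each of the 74 measured ZNF genes in their order along the short arm, coloured by cluster, with vertical lines for the 95% counting interval of the ratio, which has no pseudocount. The fourth cluster lies above 0 in 29 of 32 genes, while the genes of the other clusters scatter around 0.

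The fourth cluster took 8341 counts in the knockdown library and 5428 in the control library, a scaled ratio of 1.45 (interval 1.40 to 1.5). Its share of the counts of all 83 genes was 38% in the knockdown library and 31.1% in the control library. Its median measured gene had 4.88 TPM in the knockdown library and 3.53 TPM in the control library. Of its 32 measured genes, 29 (90.6%) had a log2 fold change above 0, 24 had an interval above 1 and 0 an interval below 1. A run of 23 measured genes in a row, from ZNF486 to ZNF681, stood above 0. When the span was cut into 3 equal stretches, the median was 0.47 in the stretch ending at ZNF431 (15 measured genes, 13 above 0), 0.56 from ZNF708 to ZNF492 (10 measured, 10 above 0) and 0.60 from ZNF99 to ZNF254 (7 measured, 6 above 0). The higher level was thus spread over the whole cluster and not held by one end.

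ZNF91, which is known to repress SVA retrotransposons, had the highest log2 fold change of the arm. It had 469 counts (2.48 TPM) in the knockdown library and 213 counts (1.17 TPM) in the control library, a log2 fold change of 1.01 and a ratio interval of 1.76 to 2.45. The gene carries 32 zinc finger matches in its longest annotated protein. ZNF93, which is known to repress older L1 retrotransposons, had 254 counts (9.92 TPM) in the knockdown library and 155 counts (6.31 TPM) in the control library, a log2 fold change of 0.59 (ratio interval 1.26 to 1.90). For both genes the interval excluded equal levels, and ZNF91 stood close to a 2-fold difference. Its log2 fold change was 0.97 with a pseudocount of 1 and 0.96 with a trend on GC content and length removed. From deposited TPM plus 0.5 it was 0.83, where the added 0.5 is large beside the TPM of this gene and pulls the value towards 0.

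Next in size came ZNF429, with 424 counts in the knockdown library and 202 in the control library (log2 fold change 0.94, ratio interval 1.67 to 2.35). ZNF257 had 279 counts in the knockdown library and 138 in the control library (0.87, interval 1.55 to 2.36), and ZNF714 had 556 and 288 (0.84, interval 1.58 to 2.11). All 3 encode C2H2 zinc finger proteins for which no function is stated here, and a KRAB match was found in ZNF429 and ZNF257 but not in the longest annotated protein of ZNF714. ZNF253 had 282 counts in the knockdown library and 147 in the control library (0.80), and ZNF708 had 221 and 119 (0.75). ZNF675, which encodes a protein known to bind TRAF6 and dampen its signalling, had 170 counts in the knockdown library and 91 in the control library (0.74). ZNF254, the member nearest the centromere, had 419 and 242 (0.68). In each of these genes the whole interval of the ratio lay above 1.

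The remaining genes past 1.5-fold were closer to that limit. ZNF737 had 193 counts in the knockdown library and 111 in the control library (log2 fold change 0.66), ZNF66 had 102 and 59 (0.61), ZNF681 had 155 and 92 (0.60) and ZNF208 had 173 and 104 (0.59). Together with ZNF93, each of these 4 dropped under 1.5-fold in at least 1 of the other ways of computing the fold. ZNF43 had the most counts of the cluster, 710 in the knockdown library and 461 in the control library, at a log2 fold change of 0.53, and was singled out after its values were seen. ZNF506 had the highest mean TPM, 9.77 in the knockdown library and 6.84 in the control library (0.47). The direction was thus shared by genes of high and low level within the cluster.

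Few genes of the fourth cluster stood below 0, though 8 of its 32 measured genes had an interval that includes 1. Of these 8, ZNF85, ZNF738, ZNF729, ZNF730 and ZNF724 had a log2 fold change above 0. ZNF726 was the lowest, with 112 counts in the knockdown library and 120 in the control library (log2 fold change -0.17, ratio interval 0.674 to 1.15). ZNF90 had 246 and 258 (-0.15), and ZNF14 had 170 and 166, which is -0.05 after scaling. All 3 intervals include 1, so a difference was not detectable at this depth. ZNF729 carries the most zinc finger matches of the arm, 39, with 39 counts in the knockdown library and 25 in the control library (0.40). ZNF738 carries 0 in a listed protein of 137 residues, with 240 and 193 (0.22).

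**Figure D2:**
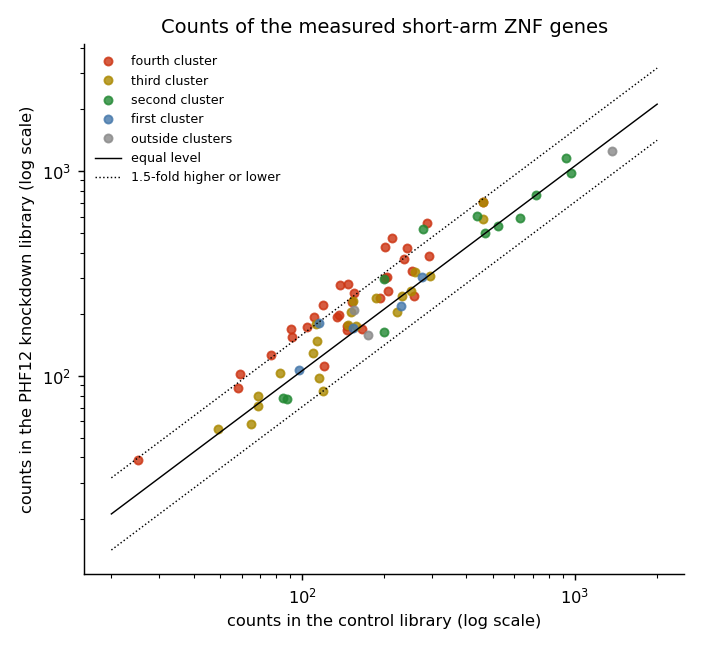
Counts of each measured gene in the PHF12 knockdown library (vertical, log scale) against the control library (horizontal, log scale), coloured by cluster, with a line for equal scaled levels. Genes of the fourth cluster lie above the line at low and at high counts, with ZNF91 farthest from it.

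The promoters of the fourth cluster resemble each other. RefSeq promoter sequences (GRCh38.p14, 250 bases before to 50 after the start) were matched by symbol for 73 of the 83 genes, 29 of them in the fourth cluster. The stretches printed here are those of 5 genes among the highest in log2 fold change that hold a shared word, of ZNF726 and ZNF90 as genes that did not stand higher, and of ZNF85, a gene in between that was chosen after its values were seen. They do not include ZNF253. Each stretch is 84 bases of chromosome 19, read along the gene from 5′ to 3′. Capitals mark the shared words TCCAATCAGG or, where its last bases differ, TCCAATCA, and GGCTTCCGGG.
ZNF91: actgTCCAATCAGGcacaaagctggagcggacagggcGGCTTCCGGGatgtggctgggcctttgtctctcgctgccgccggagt
ZNF429: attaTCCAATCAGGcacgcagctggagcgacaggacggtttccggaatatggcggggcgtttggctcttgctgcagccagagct
ZNF257: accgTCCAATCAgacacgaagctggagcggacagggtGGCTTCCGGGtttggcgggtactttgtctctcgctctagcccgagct
ZNF714: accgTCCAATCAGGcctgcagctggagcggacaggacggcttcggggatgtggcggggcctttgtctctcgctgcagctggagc
ZNF708: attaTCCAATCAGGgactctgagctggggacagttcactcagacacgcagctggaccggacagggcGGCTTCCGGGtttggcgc
ZNF85: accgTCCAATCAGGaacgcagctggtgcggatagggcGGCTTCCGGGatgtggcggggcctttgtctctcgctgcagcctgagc
ZNF726: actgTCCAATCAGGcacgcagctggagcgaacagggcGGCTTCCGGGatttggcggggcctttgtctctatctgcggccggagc
ZNF90: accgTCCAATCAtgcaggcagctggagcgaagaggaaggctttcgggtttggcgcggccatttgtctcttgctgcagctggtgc
The ZNF91 stretch lies at chr19:23395451-23395534 on the minus strand, ZNF429 at chr19:21505568-21505651 (plus), ZNF257 at chr19:22052427-22052510 (plus) and ZNF714 at chr19:21082140-21082223 (plus). ZNF708 lies at chr19:21329363-21329446 (minus), ZNF85 at chr19:20923194-20923277 (plus), ZNF726 at chr19:23914823-23914906 (plus) and ZNF90 at chr19:20077942-20078025 (plus).

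The words were picked because most promoters of the fourth cluster hold them, so their frequency there follows from the choice, and both strands were searched. TCCAATCA contains CCAAT, the core of the box bound by the factor NF-Y, and was found in 29 of 29 promoters of the fourth cluster, 19 of 24 of the third, 0 of 12 of the second, 4 of 5 of the first and 1.61% of all 27305 promoters. Its longer form TCCAATCAGG, which overlaps it, was found in 26, 14, 0 and 3 promoters in the same order and in 0.388% of all. The core CCAAT by itself was found in 29, 22, 4 and 5 promoters in that order and in 35.7% of all. CTGTCACTCA lies farther upstream, at a median of 125 bases before the start, and was found in 22 promoters of the fourth cluster, 11 of the third, 0 of the second and first and 0.385% of all. GGCTTCCGGG, which read on the other strand contains the GGAA core bound by ETS factors, was found in 20 of 29 promoters of the fourth cluster, 0 of those of the other clusters and 0.469% of all. In those 20 promoters it began 33 bases or more after the start of TCCAATCA, with a median of 33 and at most 62. A match is a description of the sequence and not a shown binding site.

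Within the cluster, genes with and without the words overlapped in their log2 fold change. ZNF726, with both words intact in the stretch printed above, had -0.17, and ZNF429, whose stretch lacks an exact GGCTTCCGGG, had 0.94. The ZNF429 stretch still holds TTCCGG, which read on the other strand contains the GGAA core, so it lacks the exact word and not the core. The 19 measured genes of the cluster with GGCTTCCGGG had a median log2 fold change of 0.56, with 18 above 0, and the 9 measured genes without it had 0.47, with 7 above 0. Away from the short arm, 12 measured ZNF genes hold GGCTTCCGGG, 3 on the long arm and 9 on other chromosomes. All 12 had a log2 fold change above 0, from 0.01 to 0.60 with a median of 0.32, and the 320 measured ZNF genes off the arm without it had a median of 0.05, with 187 above 0. The highest of the 12 was ZNF107 on chromosome 7, with 643 counts in the knockdown library and 397 in the control library. It was the 1 gene of the 12 at least 1.5-fold higher, beside 1.33% of all measured genes. The ratio interval included 1 for ZNF436, ZNF669, ZNF124, ZNF528 and ZNF578. The 12 also differ in GC content of the coding sequence, from 35.8% in ZNF107 to 47.5% in ZNF436, which was not separated from the word. The 72 measured genes not named ZNF that hold the word had a median of -0.03, with 34 above 0, so outside the ZNF genes the word went with no higher level. The other words gave like values in ZNF genes off the arm. The median was 0.35 for TCCAATCA (15 of 16 genes above 0), 0.35 for TCCAATCAGG (11 of 12) and 0.42 for CTGTCACTCA (8 of 8). The same gene can hold several of the words, and genes with only one of them were not separated. These values therefore cannot tell which word, if any, the higher level goes with. In the third cluster the words went either way. The median was 0.14 over 17 genes with TCCAATCA and 0.07 over 5 without, 0.10 over 12 with TCCAATCAGG and 0.14 over 10 without, and 0.11 over 9 with CTGTCACTCA and 0.20 over 13 without.

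**Figure D3:**
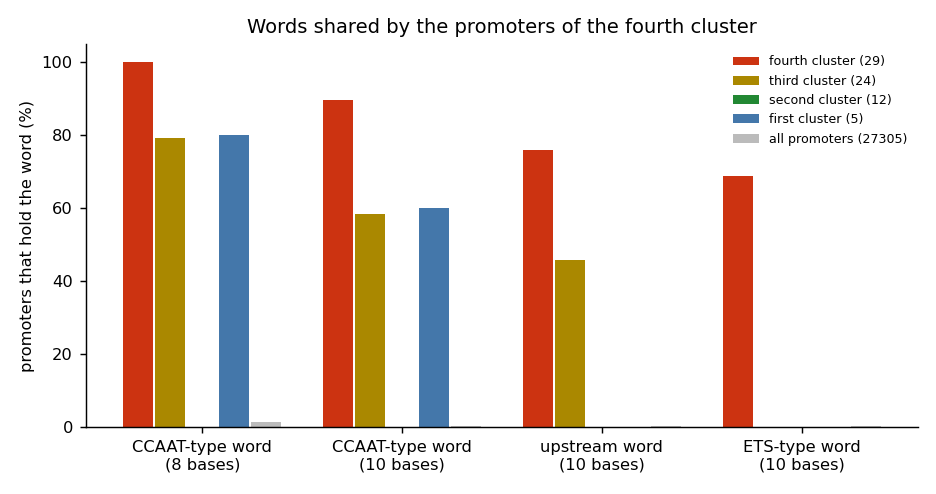
Percentage of promoters that hold each of the 4 words, for each cluster and for all 27305 RefSeq promoters. The word with the GGAA core is found in 20 of 29 promoters of the fourth cluster and in 0 of those of the other clusters, while TCCAATCA is also frequent in the third and first.

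The promoters of the fourth cluster were also lower in GC content. Their median was 56% GC with 10 CpG dinucleotides per 300 bases, beside 59.2% and 16 in the third cluster, 61.3% and 18.5 in the second, 65% and 25 in the first, and 58.3% and 14 over all promoters.

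In the second cluster the genes went both ways. ZNF426 was the one gene outside the fourth cluster at least 1.5-fold higher, with 524 counts (7.49 TPM) in the knockdown library and 278 counts (4.14 TPM) in the control library, a log2 fold change of 0.80 (ratio interval 1.53 to 2.06). Its full promoter window holds none of the words. Printed here is only the downstream part of that window, 150 bases at chr19:9538596-9538745 (minus strand).
ZNF426: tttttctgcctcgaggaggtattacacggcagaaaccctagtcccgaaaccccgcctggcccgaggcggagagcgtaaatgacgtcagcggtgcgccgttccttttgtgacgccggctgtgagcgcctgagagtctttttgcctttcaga
The lowest gene of the cluster was ZNF699, with 163 counts in the knockdown library and 199 in the control library (-0.35, ratio interval 0.624 to 0.955). ZNF317 had the highest mean TPM, with 1159 counts (28.2 TPM) in the knockdown library and 930 counts (23.6 TPM) in the control library (0.23). Of 12 measured genes, 6 stood above 0, 4 had an interval above 1 and 2, ZNF699 and ZNF266, an interval below 1. The cluster took 6269 counts in the knockdown library and 5521 in the control library, a ratio of 1.07 (interval 1.03 to 1.11).

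The third cluster took 4752 counts in the knockdown library and 3933 in the control library, a ratio of 1.14 (interval 1.09 to 1.19). Of its 22 measured genes 0 were past 1.5-fold, a number too small to read against 1.33% of all measured genes. Its highest gene was ZNF490, with 179 counts in the knockdown library and 112 in the control library (log2 fold change 0.54). Its lowest, and the lowest of the arm, was ZNF441, with 84 and 119 (-0.52, ratio interval 0.497 to 0.888). ZNF653, which had the highest mean TPM, had 10.3 TPM in the knockdown library and 11.6 TPM in the control library (-0.19). Above 0 stood 63.6% of its genes, with 6 intervals above 1 and 1 below, beside 20.3% and 20.9% of all measured genes. Of the 4 clusters, the reads of this one are the least certain: 10 of its 22 measured genes share more than 5% of their 100-base words with transcripts of other genes, against 3 of 32 in the fourth cluster. Among these 10 is ZNF490, with 70.5% shared.

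The first cluster and the lone genes were mixed. The first cluster took 983 counts in the knockdown library and 870 in the control library, a ratio of 1.07 (interval 0.972 to 1.17). ZNF554, its highest, had 182 counts in the knockdown library and 115 in the control library (log2 fold change 0.53, ratio interval 1.18 to 1.90), ZNF556, its lowest, had 220 and 231 (-0.15), and ZNF57, its most abundant, had 14.8 TPM in the knockdown library and 13.9 TPM in the control library (0.06). ZNF358, outside the clusters, was the most counted gene of the arm, with 1254 counts in the knockdown library and 1364 in the control library (-0.20, ratio interval 0.802 to 0.937). ZNF333 had 159 and 174 (-0.20), and ZNF557 had 211 and 155 (0.34, ratio interval 1.04 to 1.59). The 3 lone genes together took 1624 counts in the knockdown library and 1693 in the control library, a ratio of 0.905 (interval 0.845 to 0.969).

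Other gene groups were set beside the arm as a description. ZNF genes on the long arm of chromosome 19 had a median log2 fold change of 0.07 over 157 measured genes, with 6 (3.82%) at least 1.5-fold higher and 2 (1.27%) lower. ZNF genes on other chromosomes had a median of 0.05 over 234, with 8 (3.42%) higher and 1 (0.427%) lower. Of all measured genes 1.33% were higher and 1.41% lower by as much. The other protein-coding genes of the short arm had -0.08 over 370, with 31.9% above 0. The median of the fourth cluster, 0.50, thus stood above those of other ZNF genes and of other genes of its arm in these libraries, though single genes overlapped, the highest ZNF gene of the long arm reaching 1.04. Within the span of the fourth cluster the table lists 51 other genes, of which 8 were measured, 5 long noncoding RNAs, 2 transcribed pseudogenes and RPSAP58, which the table gives as protein-coding. These 8 had a median of 0.17 and 0 past 1.5-fold in either direction, too few genes to read against 1.33% and 1.41% of all measured genes. All 51 together took 1301 counts in the knockdown library and 1190 in the control library, a ratio of 1.03 (interval 0.952 to 1.12). Among the 8, the pseudogene ZNF826P had 64 counts in the knockdown library and 77 in the control library.

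**Figure D4:**
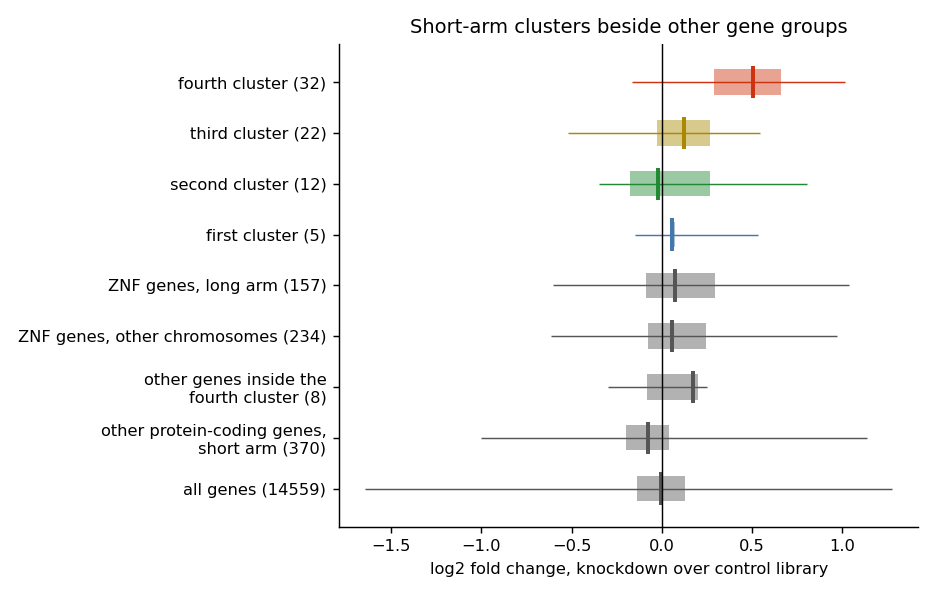
Log2 fold change (knockdown over control library) of the measured genes of each short-arm cluster and of the gene groups set beside them, with the median of each group marked. The fourth cluster has the highest median, 0.50, against 0.07 for ZNF genes of the long arm and 0.05 for those of other chromosomes.

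Coding GC content moved with the position on the arm and with the fold change. The median GC content of the coding sequence was 37.8% in the fourth cluster, 41.4% in the third, 42.8% in the second and 46.5% in the first. Across the 74 measured genes, which share both libraries, Spearman's rho between coding GC and log2 fold change was -0.52. It was -0.01 over the 32 genes of the fourth cluster and -0.17 over the 42 others, so within either group the relation was weak. Between 36% and 38% coding GC, 15 of the ZNF genes had a median of 0.56, and 162 protein-coding genes off the list had 0.02. Protein-coding genes not named ZNF in the GC range of the fourth cluster, 35.6% to 44.3%, had a median of 0.02 over 2415 genes. In that range the ZNF genes of the long arm had 0.07 over 89 and those of other chromosomes 0.13 over 95. A shared range is not a match in GC. The median coding GC was 41.6% in the genes not named ZNF, 40.7% in the long-arm ZNF genes and 40.7% in those of other chromosomes, all above the 37.8% of the fourth cluster. With a trend on GC content and length removed, the median of the fourth cluster was 0.45. The number of zinc finger matches went with the log2 fold change at a rho of 0.09 over the 74 genes, and the mean CPM at 0.10.

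**Figure D5:**
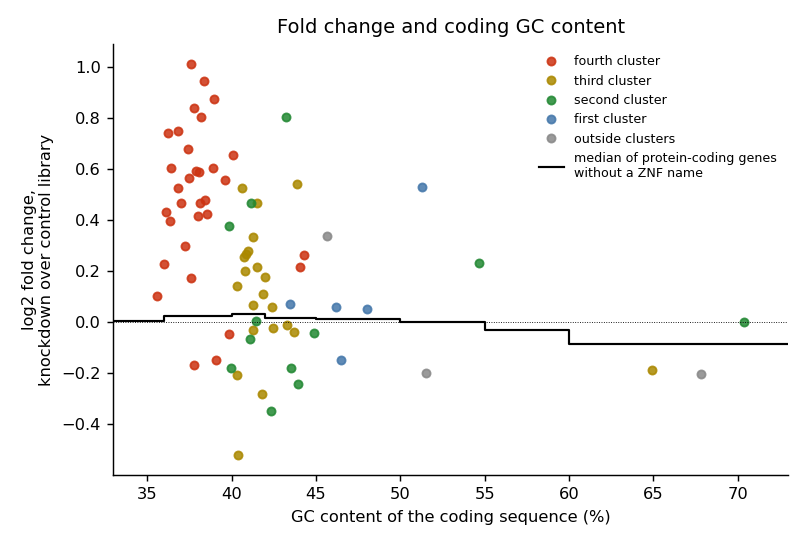
Log2 fold change (knockdown over control library) against the GC content of the coding sequence in percent, for the measured ZNF genes of the arm coloured by cluster, with the median of other protein-coding genes in each GC bin. Most ZNF genes between 36% and 40% GC stand above the median of other genes at that GC content, which is 0.02.

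The genes known to work with KRAB zinc finger proteins went both ways. Of a list of 33 such genes, all measured, 19 had a log2 fold change above 0 and 14 below, with a median of 0.05. The interval of the ratio lay above 1 for 13 and below 1 for 6, beside 20.3% and 20.9% of all measured genes. None of the 33 was past 1.5-fold, beside 1.33% higher and 1.41% lower of all measured genes, a share under which a list of this length need not hold any. TRIM28, the corepressor that binds the KRAB domain, had 8422 counts (261 TPM) in the knockdown library and 8305 counts (268 TPM) in the control library (-0.06). SETDB1, the methyltransferase it recruits, had 1128 and 1073 counts (-0.01). The highest was HDAC1, a histone deacetylase, with 4330 counts in the knockdown library and 2936 in the control library (0.47). The lowest was ATF7IP2, a relative of the SETDB1 partner ATF7IP, with 106 and 129 counts (-0.33).

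Certain words of 7 bases in the 3′ UTR had been found more often among genes that differ between these libraries. Of the 73 measured ZNF genes with an annotated 3′ UTR, 0 carried one found in lower genes and 1, ZNF557, carried one found in higher genes, beside 2.71% and 3.10% of 12318 protein-coding genes. Of the 74 measured genes, 26 overlap another listed gene, 8 of them in the fourth cluster. The strand setting of the counting is not given in the sources used here, so their reads cannot be told apart from those of the overlapping gene.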

How the data were processed

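RNA was measured in 2 libraries of H1299 cells, 1 labelled PHF12 knockdown and 1 control, grouped by their treatment labels. Per the labels' protocols, poly(A) RNA was made into NEBNext Ultra libraries and sequenced in pairs. HISAT2, HTSeq and the build hg38 are named in the submitters' processing notes, without versions or the strand setting. The authors deposited raw counts per gene, and the deposited TPM values equal count over gene length scaled to 1000000, within 1e-06.

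TMM scaling of the counts used edgeR 4.0.16 in R 4.3.3, with limma 3.58.1, and gave factors of 1.00 (knockdown) and 0.997 (control). Log2 fold changes are of CPM plus 0.5, for genes whose mean over both libraries reached 1 CPM. Ratio intervals are exact conditional Clopper-Pearson 95% intervals of 2 Poisson counts. Reads of related genes can be shared, and poly(A) reads without molecular identifiers are not independent molecules. Zinc finger matches, KRAB matches, coding GC and 100-base words come from GENCODE release 29, promoters from RefSeq (GRCh38.p14). Other steps ran in Python 3.11.15 with scipy 1.17.1, numpy 2.4.6, matplotlib 3.10.9 and pandas 2.3.3, and the computation was tested on simulated counts.

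The genes, lists and settings were chosen with earlier results of these data known. Genes named are PHF12, those past 1.5-fold, in each cluster the highest, the lowest and the most abundant, the genes outside clusters, those nearest the minimum of 1 CPM, and those with most and fewest finger matches. Some cell type markers are not reported here. The shared promoter words and their genes were chosen after the values were seen. Alternatives were scaling with DESeq2 1.42.0 or by total counts, a pseudocount of 0.1 or 1, no minimum or 5 CPM, deposited TPM (plus 0.5 in fold changes), a GC and length trend, overlapping genes left out, genes with the 3′ UTR words left out, other gaps and folds, and the most counted gene left out.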

Additional observations from a re-analysis of the deposited data

How the results depend on the processing

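With 1 library per group there is no replicate check. No paired analysis was possible because each group has 1 library and no test was made. Of 98 values recomputed under other settings, 7 moved by more than the counting interval or by over 1.5 times in a count, and these are given here. For a median, the limit was set from the counting interval of the single gene nearest it, which is wide. The number of values that did not move is thus no measure of how stable the medians are. The median of the 74 genes ranged from 0.21 to 0.28 and that of the fourth cluster from 0.45 to 0.54. That of the third ranged from 0.09 to 0.24, with 0.24 at a minimum of 5 CPM and 0.22 without overlapping genes, against the reported 0.13. The second cluster changed sign, from -0.06 to 0.01. The ratio of summed counts was 1.15 with deposited TPM, 1.21 without overlapping genes, 1.21 without the most counted gene, ZNF358, and 1.23 without genes of shared sequence, a setting added after the data were seen. At a threshold midway between equal levels and 1.5-fold, 32 genes were higher and 2 lower, beside 6.99% of all measured genes higher. At 2-fold, 1 gene, ZNF91, was higher, beside 0.117%. The count of 14 was 10 with a pseudocount of 1, with deposited TPM plus 0.5 or with the GC and length trend removed. Adding 0.5 to a TPM pulls genes of few TPM towards 0. What else moved these counts was not tested. Depth limits the genes under 100 counts most.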
